A study of Mus musculus with 64 samples.

Results

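The p53 target genes are a set of 32 genes, made up of Trp53, which encodes the transcription factor p53, of genes known as its targets, and of its inhibitors Mdm2 and Mdm4. They were listed by name, with earlier results of these data known. All 32 were found by symbol among the 48440 genes of the liver and of the adipose table. All 32 also passed the filter on low values (a mean normalized signal of at least 10), among 15180 genes tested in liver and 17394 in gonadal adipose tissue. Every mouse was of the 129S6/SvEvTac strain and had drunk water with 400 ppb of inorganic arsenic over 4 weeks. Wild-type (WT) mice carried mouse AS3MT, the enzyme that methylates arsenic, and humanized mice carried the human gene in its place, in both sexes. There were 3 liver mRNA libraries and 3 adipose RNA libraries in each of the 4 groups, except for 2 adipose libraries of WT males. The labels call the adipose molecule total RNA but cite for its libraries a protocol of Chu et al., which is known for chromatin run-on sequencing, so that the adipose values may measure ongoing transcription rather than mRNA levels. This was not tested here, and every adipose value below carries that doubt. No mice without arsenic were analysed here, so that genotypes and sexes are compared among exposed animals only. The labels used here give no ages.

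The p53 protein is kept low by Mdm2, a ubiquitin ligase that marks it for degradation, and by the related Mdm4. When DNA is damaged, kinases such as Atm and Chek2 free p53 from this control, mostly without a change in Trp53 mRNA, and p53 then raises the transcription of its targets. Among these are Cdkn1a, which encodes the cell cycle inhibitor p21, Mdm2 itself as negative feedback, mediators of apoptosis such as Bax, Bbc3 (PUMA) and Pmaip1 (NOXA), and genes of DNA repair and redox balance. In liver Cdkn1a is also known to be regulated by fasting and during regeneration.

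The p53 protein binds DNA as a tetramer, over a pair of half-sites of 10 bases each. RefSeq windows on GRCm38.p6, from 250 bases before to 50 after a gene's start, matched 24 of the 32 genes, with 32 windows in all because some genes have several starts. The consensus p53 half-site is its own reverse complement, so that a search of the gene's strand covers both. An exact match was held by 12 of the 32 windows (37.5%), from 11 genes, against 8.36% of all 32851 windows of the same length. A pair of exact half-sites at most 13 bases apart was found in 1 gene, Cdkn1a, and in 0.07% of all windows. The search allowed no mismatch, so that a half-site with a differing base, as directly after the second match in Cdkn1a, is left unmarked. The windows of Cdkn1a, Ccng1 and Aen are shown because these 3 targets varied together across adipose libraries. Half-site matches are in capitals, and the sequences run 5′ to 3′ on the gene's strand. They lie at chr17:29090729-29091028 (plus strand), chr11:40755237-40755536 (minus strand) and chr7:78895808-78896107 (plus strand). A match describes letters and is not a measured site of binding.
Cdkn1a: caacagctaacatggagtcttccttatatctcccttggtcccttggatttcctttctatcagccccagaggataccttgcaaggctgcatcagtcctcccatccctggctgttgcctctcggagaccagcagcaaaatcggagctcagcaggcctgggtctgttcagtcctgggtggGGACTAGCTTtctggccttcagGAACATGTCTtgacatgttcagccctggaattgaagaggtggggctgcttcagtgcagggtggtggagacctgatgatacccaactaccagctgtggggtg
Ccng1: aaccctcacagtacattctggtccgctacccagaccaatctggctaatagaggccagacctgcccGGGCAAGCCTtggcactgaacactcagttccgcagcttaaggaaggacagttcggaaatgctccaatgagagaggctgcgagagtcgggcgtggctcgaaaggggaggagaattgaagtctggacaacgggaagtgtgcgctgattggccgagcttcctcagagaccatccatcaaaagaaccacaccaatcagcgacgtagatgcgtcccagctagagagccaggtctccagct
Aen: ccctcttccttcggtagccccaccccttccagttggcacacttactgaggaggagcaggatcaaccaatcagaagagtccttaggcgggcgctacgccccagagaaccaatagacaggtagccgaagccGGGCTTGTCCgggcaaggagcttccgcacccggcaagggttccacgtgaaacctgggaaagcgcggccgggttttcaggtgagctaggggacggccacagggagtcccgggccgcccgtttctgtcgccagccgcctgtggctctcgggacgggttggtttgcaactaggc

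The labels were checked first. Mouse As3mt stood at 2624 to 6111 in WT liver libraries and at 0 to 5.98 in humanized ones, and at 1218 to 1737 against 0 to 5.33 in adipose tissue. Xist and 4 Y-linked genes separated the sexes in both tissues, although adipose WT female replicate 5 held a Y-linked signal of 2.48% of the male median. Hepatocyte markers summed to 6633260 to 11838600 in liver, where the adipocyte genes Adipoq, Plin1, Lep and Retn each had a mean below 10. Adipocyte markers summed to 2068180 to 3152950 in adipose tissue, which also held hepatocyte markers at 5133 to 374585. Liver WT male replicate 1 stood apart, with the highest value of the 12 libraries for 10 of the 32 genes, the lowest for 6 and the lowest summed circadian clock signal, 28479 against 43957 to 72831 elsewhere. Liver humanized female replicate 2 was highest for 8. In adipose tissue WT female replicate 6 was highest for 10 of the 32 genes, WT female replicate 5 lowest for 9, and humanized male replicate 4 highest for 8 and lowest for 5. The macrophage markers of this male summed to 290592 against 42781 to 134896 elsewhere, and its cell cycle genes to 21247 against 3212 to 8277. Adipose WT male replicate 5 had the most red blood cell RNA, 1525870 against 45291 to 301492. Where leaving out such a library moved a result, the value without it is given too.

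In liver, no p53 target gene was called different between humanized and WT mice (limma, Benjamini-Hochberg adjusted p under 0.05 over all genes tested). Few genes of any kind were called: 0.0329% in males, 0.0198% in females, 0.0329% with the sexes averaged, and 0.00659% in the test of whether the genotype difference differed between the sexes. An unadjusted p under 0.05 was reached by 1, 1, 1 and 1 of the 32 in that order, or 3.12% each, against 7.13%, 5.66%, 5.07% and 8.18% of all genes. In males 15 were higher and 17 lower in humanized mice, with a median log2 difference of -0.05 against -0.01 over all genes. In females 17 were higher and 15 lower, with a median of 0.04 against -0.01 over all genes. Members with a small p were thus no more frequent than among all genes.

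Trp53 itself (ENSMUSG00000059552) had normalized signals of 1386, 1248 and 1472 in WT females and 1342, 1454 and 1419 in humanized females, in the order of the replicate numbers. It had 1403, 1383 and 1597 in WT males and 1232, 1179.9 and 1331 in humanized males. The female groups overlapped, while every humanized male lay below every WT male, by a log2 difference of -0.20 ± 0.13 (value ± SE, adjusted p = 0.754 by limma). Its highest value was 1.35 times its lowest, and only Xpc among the members varied less in liver. Mdm2 (ENSMUSG00000020184) read 1925, 1849 and 1977 in WT females and 2042, 1941 and 1455 in humanized females. It read 2888, 2293 and 2259 in WT males and 1744, 1754 and 2275 in humanized males. Its groups overlapped in both sexes, and the log2 difference was -0.35 ± 0.18 (adjusted p = 0.715) in males and -0.08 ± 0.18 (adjusted p = 0.933) in females. Within a preparation 1 arm of each sex is a single library. In males this is WT replicate 1 after ribosomal depletion, where the difference was -0.72, and humanized replicate 3 among polyA libraries, where it was -0.00079, so that preparation and library cannot be told apart.

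Among the genes of cell cycle arrest, Cdkn1a (ENSMUSG00000023067) varied most of all members in liver, with a highest value 27.9 times its lowest. It read 1097, 1834 and 2385 in WT females and 1921, 1893 and 161 in humanized females. It read 4484, 3115 and 721 in WT males and 255, 495 and 729 in humanized males. The lowest WT male lay within the humanized range, and humanized female replicate 3 lay below all other libraries. The log2 difference was -2.08 ± 0.96 in males (4.22-fold lower, 95% interval -4.20 to 0.05, adjusted p = 0.704 by limma) and -0.83 ± 0.96 (adjusted p = 0.866) in females. Without WT male replicate 1 the male value was -0.90, and without humanized female replicate 3 the female value was 0.19, a change of sign. In males it was -3.65 after ribosomal depletion, with WT male replicate 1 as the sole WT library, and -1.04 in polyA libraries, with humanized male replicate 3 as the sole humanized one.

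**Figure D1:**
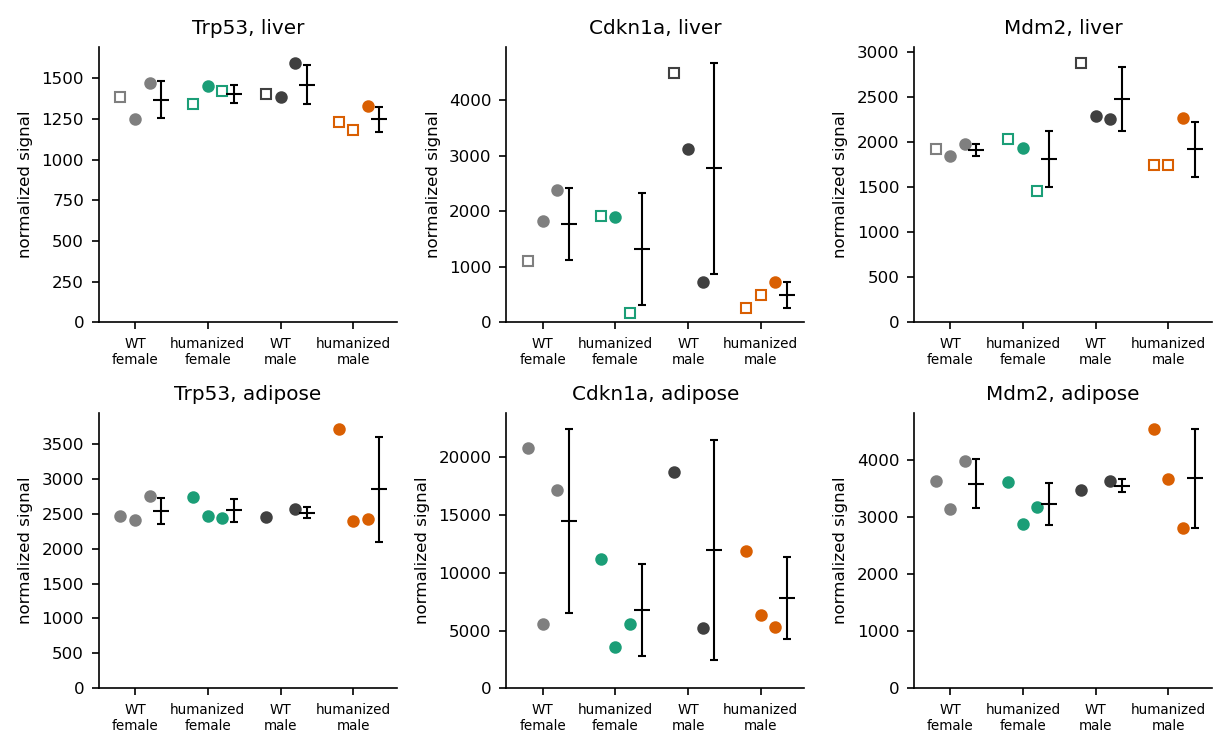
Normalized signal (y axes, from 0) of Trp53, Cdkn1a and Mdm2 in each library of liver mRNA and adipose RNA, by group. Open squares are liver libraries made after ribosomal depletion, filled circles all others, and black bars the mean ± SD. Cdkn1a spans 161 to 4484 in liver and 3592 to 20823 in adipose tissue with overlapping genotypes, whereas Trp53 stays within 1179.9 to 1597 and 2402 to 3718.

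Perp, a membrane protein of desmosomes that p53 induces in apoptosis, had the smallest p of the 32 in liver males. Its signal was 5914, 6637 and 6917 in WT males and 8216, 7673 and 7378 in humanized males. In females it was 6170.1, 6570.3 and 6085 in WT and 7417, 8429 and 6303 in humanized mice. Humanized males lay above WT males, and the female groups overlapped. The log2 difference was 0.29 ± 0.13 (adjusted p = 0.689) in males, 0.26 ± 0.13 (adjusted p = 0.786) in females and 0.28 ± 0.09 (adjusted p = 0.88) with the sexes averaged. Ddb2, the DNA damage recognition factor of nucleotide excision repair, had the smallest p in females. It read 324, 373 and 456 in WT females and 452, 530.3 and 465 in humanized females, which overlapped, with a log2 difference of 0.46 ± 0.19 (adjusted p = 0.786). In males it read 238, 455 and 339.9 in WT and 315.01, 288 and 354 in humanized mice, which overlapped.

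Genotype groups that did not overlap were counted as a separate description. In males they were those of 3 of the 32 genes, Perp and Tigar (higher in humanized mice) and Trp53 (lower), where 10% of all genes did not overlap. In females they were those of another 3, Gadd45b (higher), Zmat3 and Mdm4 (lower), where the share of all genes was 14.1%. With the sexes pooled there were 0, against 0.152%. The counts of members lay near these shares.

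Sorted by role, the members went both ways. Of the 13 genes of apoptosis, 6 were higher and 7 lower in humanized males, and 8 were higher and 5 lower in humanized females. Of the 6 genes of repair and redox balance, 4 and 3 were higher in males and in females. Bax, the pore-forming protein of the mitochondrial pathway, lay at 1526 to 2924 over the 12 libraries and Fas, the death receptor, at 928 to 1716. Gdf15, a stress-induced hormone, read 2154, 344 and 341 in WT males and 215, 595 and 705 in humanized males, with WT male replicate 1 above all other libraries. Of 22 kinases, cofactors and inhibitors listed around p53, 20 could be tested in liver and 0 were called for genotype, with 10 higher in males and 6 in females. Of 35 further p53 targets tested from a list of 40, 0 were called in either sex, with 17 and 19 higher. Of 18 cell cycle genes tested 0 were called. Of these 17 were higher in humanized males (median log2 difference 1.16) and 5 in humanized females (-0.38). Their sums overlapped, at 762 to 961 in WT and 722 to 2224 in humanized males, and 994 to 1382 and 716 to 1064 in females.

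**Figure D2:**
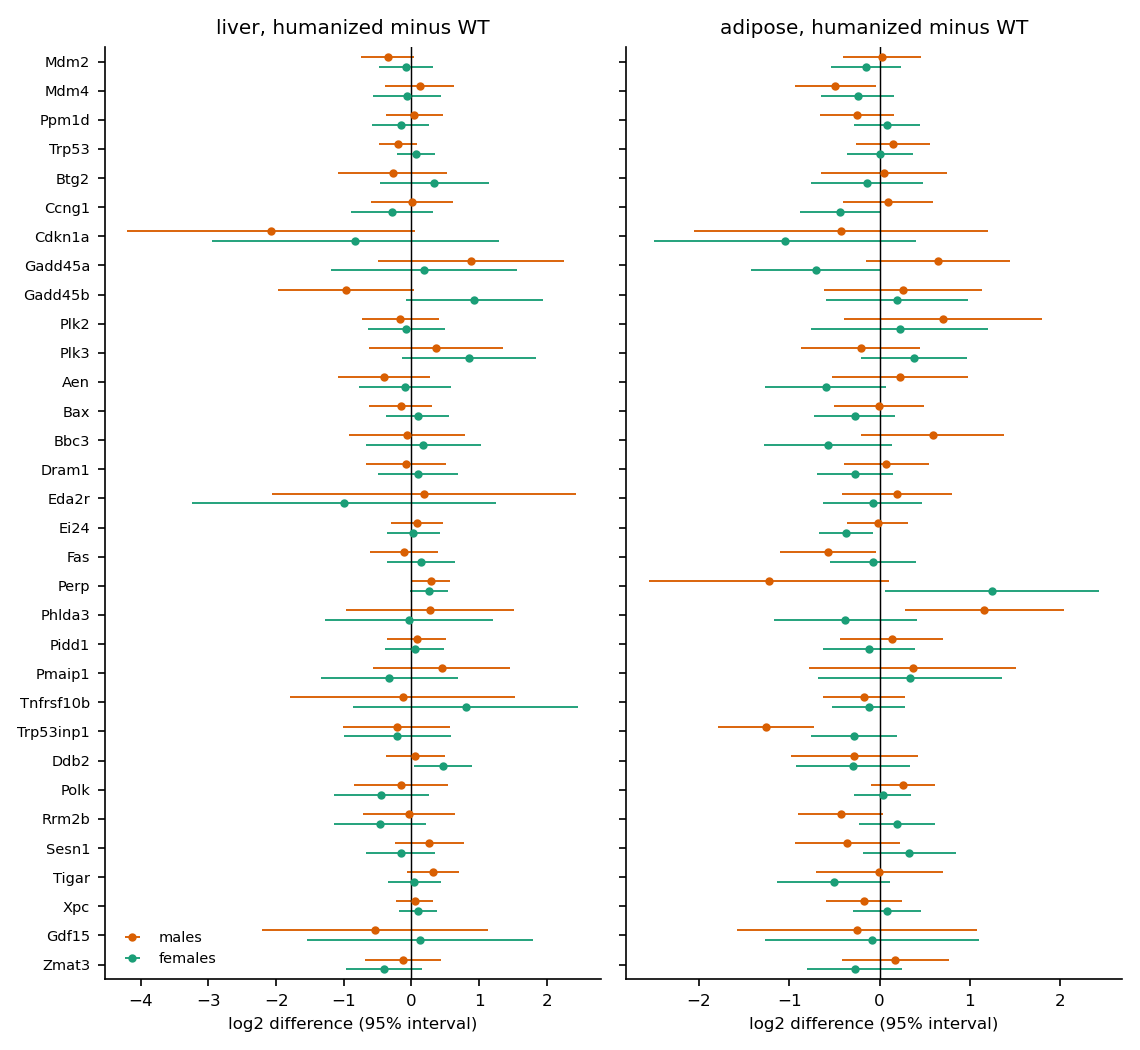
Log2 difference of humanized minus WT mice (x axes) for each of the 32 p53 target genes (rows) in liver and adipose tissue, with 95% intervals from limma for males and for females. No difference passed the adjusted threshold, and the widest intervals in liver belong to Eda2r, Cdkn1a and Gdf15.

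Between the sexes, 2 of the 32 genes were called in liver. Gadd45b was lower and Plk2 was higher in males. Over all genes 9.59% were called, 5.47% lower and 4.12% higher in males, so that the members' share was no larger than the background. Gadd45b (ENSMUSG00000015312), a stress-induced protein that interacts with p21 and that other factors than p53 also induce, read 862, 499 and 623 in WT females and 1229, 1671 and 1390.1 in humanized females. It read 479, 164 and 83.8 in WT males and 143, 93.7 and 101 in humanized males. All 6 males lay below all 6 females, with a log2 difference of -2.72 ± 0.31 (6.60-fold lower, adjusted p = 0.000529 by limma). It was called in both preparations, at -3.14 in polyA libraries (adjusted p = 0.0278) and -2.17 after ribosomal depletion (adjusted p = 0.0145), and without any single library, at -3.03 to -2.47.

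The genotypes differed in sign within the sexes for Gadd45b. Humanized minus WT was 0.93 ± 0.46 (adjusted p = 0.786) in females, without overlap, and -0.97 ± 0.46 (adjusted p = 0.704) in males, with overlap. The test of the difference between them gave -1.89 ± 0.63 (adjusted p = 0.585) by limma, which was not called. Without WT male replicate 1 it was -1.27. Trp53 was next in that comparison, at -0.27 ± 0.17 (adjusted p = 0.68).

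Plk2 (ENSMUSG00000021701), a polo-like kinase that p53 induces, read 440.1, 382 and 333 in WT females and 328, 418 and 360.3 in humanized females. It read 857, 482 and 839.9 in WT males and 513, 696 and 714 in humanized males. The 6 males lay above the 6 females, with a log2 difference of 0.83 ± 0.18 (1.78-fold higher, adjusted p = 0.0172 by limma). It was 0.80 in polyA libraries (adjusted p = 0.303) and 0.88 after ribosomal depletion (adjusted p = 0.115), close in size but not called with 6 libraries each. Without WT male replicate 1 it was 0.75 and called (adjusted p = 0.0387).

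**Figure D3:**
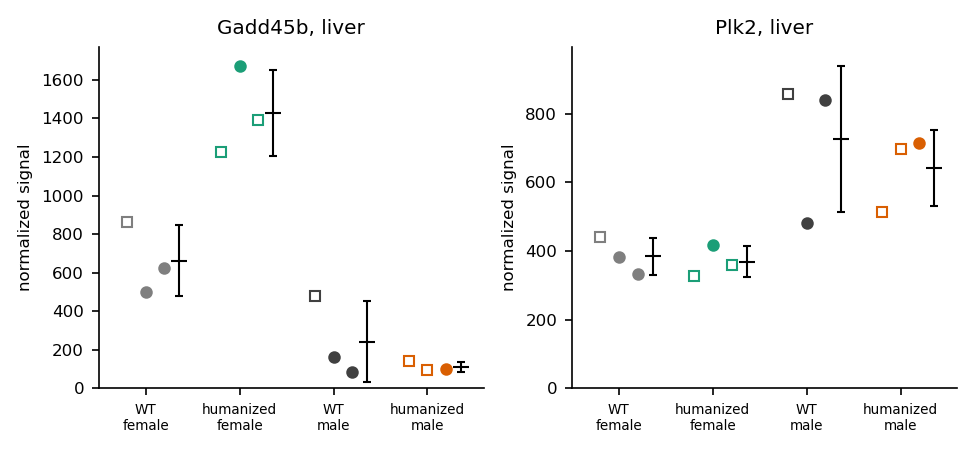
Normalized signal (y axes, from 0) of Gadd45b and Plk2 in each liver library by group, with open squares for ribosomal depletion, filled circles for polyA libraries and black bars for the mean ± SD. Gadd45b lies at 499 to 1671 in females and 83.8 to 479 in males, and Plk2 at 328 to 440.1 in females and 482 to 857 in males.

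Dram1, a lysosomal protein that p53 induces in autophagy, also did not overlap between the sexes, at 56.2 to 80.2 in females and 40.3 to 53.8 in males, but was not called (adjusted p = 0.148). Together 3 of the 32 genes did not overlap, where 5.65% of all genes did not. Next in order of p were Tigar, a regulator of glycolysis and redox balance, at 0.40 ± 0.12 (adjusted p = 0.0629), Ddb2 at -0.40 ± 0.13 (adjusted p = 0.089) and Trp53inp1 at -0.68 ± 0.25 (adjusted p = 0.109). Without WT male replicate 2 the count of called members was 4, with Ccng1 and Ddb2 beside Gadd45b and Plk2. Cdkn1a differed between the sexes by -0.27 ± 0.66 (adjusted p = 0.844), Mdm2 by 0.23 ± 0.12 (adjusted p = 0.273) and Trp53 by -0.04 ± 0.09 (adjusted p = 0.827), all by limma.

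Of the 35 further p53 targets, 4 were called between the sexes of liver, a share near the 9.59% of all genes, and nothing is read from it. In this list 1 was called higher in males, the interferon regulatory factor gene Irf5 at 1.31 ± 0.15 (adjusted p = 0.000467 by limma). Another 3 were called lower, which were Ccnd2 (cyclin D2) at -0.57 ± 0.13, Sesn2 (sestrin 2) at -0.63 ± 0.16 and Trp53i11 at -0.60 ± 0.16 (adjusted p = 0.0241, 0.0351 and 0.045). Of the 20 genes around p53, 0 were called, and of 18 cell cycle genes E2f1 was called higher at 0.92 ± 0.25.

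Of 15 immediate early genes, which respond within minutes to growth factors or stress, 5 were called lower in males and 0 higher, while 13 had values below and 2 above those of females. The called genes included Klf4 at -1.50 ± 0.23, Nr4a1 at -1.54 ± 0.31, Fos at -1.14 ± 0.24 and Zfp36 at -0.61 ± 0.16. Their summed signal was 21662 to 36927 in females and 15843 to 21742 in males, which overlapped narrowly. All 9 targets of the glucocorticoid receptor were lower in males, and 1, the kinase gene Sgk1, was called at -1.07 ± 0.19. Of 12 stress genes under the factor ATF4, Asns was called higher in males at 4.14 ± 0.95, and Vldlr at -1.83 ± 0.39 and Sesn2 were called lower. Asns was uneven among males, with a mean ± SD of 1381 ± 1398 in WT and 641 ± 1005 in humanized males. In females it was 21.3 ± 17.1 in WT and 31.3 ± 5.74 in humanized mice. Of 7 genes tested from a list meant to follow library preparation, 1, Lars2, was called higher at 0.78 ± 0.20.

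Some markers of other liver cells were called with sex too, in both directions. All 9 macrophage genes were lower in males and 5 were called, with a summed signal of 19295 to 32263 in females and 12523 to 22309 in males. All 8 endothelial genes were lower and 6 were called, at 12275 to 23048 against 9034 to 14293. Of 8 T cell genes 7 were lower and 3 were called, at 299 to 491 against 223 to 428. Higher in males were all 5 cholangiocyte genes tested, with Sox9 called at 1.41 ± 0.22, and 4 of 5 erythroid genes, with Alas2 called at 3.77 ± 0.31 (adjusted p = 4.16e-05 by limma). Of the hepatocyte, B cell, stellate and neutrophil lists 0 genes were called. No gene of the macrophage, endothelial and T cell lists was at 0 in every liver library. The part of these cells in the difference of Gadd45b or Plk2 was not tested, and in bulk tissue fewer cells of a type and less RNA per cell cannot be told apart.

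In adipose tissue no p53 target gene was called for genotype in either sex (limma). Over all genes 0.0172% were called in males, 0.0172% in females, 0.023% with the sexes averaged and 0% in the test between the sexes. An unadjusted p under 0.05 was reached by 4, 2, 2 and 5 of the 32 in that order (12.5%, 6.25%, 6.25% and 15.6%), against 8.41%, 5.25%, 7.11% and 6.8% of all genes. In males 16 were higher and 16 lower in humanized mice, with a median log2 difference of 0.01 against 0.01 over all genes. In females 11 were higher and 21 lower, with a median of -0.13 against 0.00 over all genes. Of the 13 apoptosis genes 11 were lower in humanized females, with a median of -0.27, and of the 6 repair and redox genes 4 were higher. Over all genes 49.8% were higher in humanized females. With single libraries left out, the female median over the 32 ranged from -0.22 to -0.0032, so that its size depended on single libraries.

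Several lists of markers and pathways went mostly in a single direction between humanized and WT adipose males, with 0 genes called. All 8 hepatocyte genes were lower in humanized males (median log2 difference -2.36, summed signal 134281 to 374585 in WT and 5133 to 95149.5 in humanized males). All 6 erythroid genes were lower (-2.24, 295640.0 to 1525870 against 84338 to 257333), as were all 9 glucocorticoid targets (-0.93, 521979 to 615983 against 139079 to 577743). Of 9 macrophage genes 8 were higher (0.66, 64249 to 134896 in WT and 87032 to 290592 in humanized males). Of 20 cell cycle genes all were (0.51, 5801 to 6220 against 4300 to 21247). The macrophage and the cell cycle sums overlapped between genotypes, and each was highest in humanized male replicate 4. The part of these in the male differences that follow was not tested.

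Trp53inp1 (ENSMUSG00000028211), a nuclear protein that promotes p53 phosphorylation and cell death, had the smallest adjusted p of all members in any genotype comparison. It read 3842 and 4921 in WT males and 1838, 1719.7 and 1920.3 in humanized males. It read 3995, 3508 and 2681 in WT females and 3736, 2162 and 2602 in humanized females. The male groups did not overlap and the female groups did. The log2 difference was -1.25 ± 0.24 in males (2.38-fold lower, 95% interval -1.79 to -0.72, adjusted p = 0.194), and -0.77 ± 0.16 (adjusted p = 0.429) with the sexes averaged (limma). Without humanized male replicate 4 the male value was -1.26 and without WT male replicate 5 it was -1.07. The male minus the female difference was -0.97 ± 0.32 (adjusted p = 0.661).

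Phlda3, a p53-induced inhibitor of Akt signalling, was next in males. It read 17211 and 9707 in WT males and 24989.9, 27213 and 35557 in humanized males. In females it read 34372, 16887 and 34966 in WT and 27079, 24084 and 14125 in humanized mice. Males did not overlap and females did, with a male log2 difference of 1.16 ± 0.39 (adjusted p = 0.453) by limma. Without WT male replicate 5 it was 0.75.

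Perp differed in sign between the sexes of adipose tissue, at low signal. It read 88.4, 207 and 139 in WT females and 223, 249.6 and 617 in humanized females. It read 279 and 264 in WT males and 56.7, 153 and 175 in humanized males. The genotypes overlapped in neither sex. The log2 differences were 1.25 ± 0.53 (adjusted p = 0.933) in females and -1.23 ± 0.59 (adjusted p = 0.627) in males, and the test between them gave -2.47 ± 0.80 (adjusted p = 0.65) by limma. Without humanized male replicate 4, which had the fewest mesothelial markers, that test gave -1.97. Perp is an epithelial gene, and of 7 mesothelial markers, which mark the lining of the depot, 7 were higher in humanized females and 6 lower in humanized males, with 0 called. Their sums were 7877 to 54924 in WT and 36008 to 77151 in humanized females, and 15861 to 26002 in WT and 3638 to 27881 in humanized males. The part of these cells in the Perp values was not tested.

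Ei24, an endoplasmic reticulum protein that p53 induces, had the smallest p in females and read 8539, 5932 and 7604 in WT females and 6093, 5112 and 5708 in humanized females. The groups overlapped, at a log2 difference of -0.37 ± 0.14 (adjusted p = 0.933), and without WT female replicate 5 it was -0.52 (adjusted p = 0.188). In males, 6863 and 6036 in WT and 6590.1, 6229 and 6217 in humanized mice overlapped. Mdm4, the inhibitor related to Mdm2, read 6959, 9563 and 7198 in WT females and 6486, 6480.0 and 6892 in humanized females. It read 10462 and 7284 in WT males and 5144, 7309 and 6403 in humanized males. Female groups did not overlap, male groups did, and with the sexes averaged the log2 difference was -0.37 ± 0.13 (adjusted p = 0.614) by limma.

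Trp53 in adipose tissue read 2471, 2403 and 2753 in WT females and 2737, 2461 and 2443 in humanized females. It read 2457 and 2566 in WT males and 3718, 2402 and 2428 in humanized males. Humanized male replicate 4 lay above all other libraries, and the log2 difference was 0.15 ± 0.18 (adjusted p = 0.857) in males and 0.00 ± 0.16 (adjusted p = 0.998) in females. Without that library the male value was -0.056, a change of sign. Mdm2 read 3635, 3147 and 3992 in WT females and 3619, 2882 and 3188 in humanized females. It read 3480.3 and 3633 in WT males and 4557, 3671 and 2821 in humanized males. Its genotypes overlapped in both sexes, with a log2 difference of 0.02 ± 0.19 (adjusted p = 0.981) in males, or -0.14 without humanized male replicate 4, and -0.15 ± 0.17 (adjusted p = 0.963) in females.

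Cdkn1a in adipose tissue read 20823, 5537 and 17145 in WT females and 11219, 3592 and 5556 in humanized females. It read 18704 and 5232 in WT males and 11890.2, 6346 and 5269.9 in humanized males. Every group held both low and high libraries, so that the spread lay within groups. In every group replicate 4 read higher than replicate 5, so that this spread followed the replicate number in part. What the number stands for is not given by the labels used here. The log2 difference was -0.43 ± 0.72 (adjusted p = 0.899) in males and -1.05 ± 0.65 (adjusted p = 0.935) in females by limma. Without WT male replicate 4 the male value was 0.49, and without WT male replicate 5 it was -1.35. Without WT female replicate 5 the female value was -1.64. Adipocyte markers summed to 2958040 and 2948530 in WT female replicates 4 and 6 and to 3152950 in WT male replicate 4, the 3 libraries with the most Cdkn1a, and to 2068180 to 2701730 in the others. The part of adipocyte content in the Cdkn1a values was not tested.

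Groups that did not overlap were counted in adipose tissue too. In males they were those of 7 of the 32 genes (Bbc3, Gadd45a, Phlda3 and Polk higher, and Perp, Rrm2b and Trp53inp1 lower in humanized mice), where 23.3% of all genes did not overlap, with 2 WT males. In females they were those of Perp and Mdm4, where the share was 11%, and with the sexes pooled there were 0, against 0.661%. Of 39 further p53 targets 0 were called, with 29 higher in humanized males and 20 in females. Of 21 genes around p53 0 were called, with 11 and 7 higher.

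Between the sexes 0 of the 32 members were called in adipose tissue by limma, against 0.42% of all genes. An unadjusted p under 0.05 was reached by 0 of the 32, against 12.5% of all genes, and 0 did not overlap, against 1.94%. Eda2r, an X-linked death receptor, had the smallest p. It read 271, 354 and 428 in WT females and 284, 293 and 419 in humanized females. It read 253 and 221 in WT males and 305, 229.4 and 283.2 in humanized males, with overlap and a log2 difference of -0.41 ± 0.18 (adjusted p = 0.402). Gadd45b read 491, 453 and 688 in WT females and 796, 552 and 526.3 in humanized females. It read 606 and 938 in WT males and 1558, 624 and 757 in humanized males. The sexes overlapped, and the log2 difference of 0.53 ± 0.26 (adjusted p = 0.454) was not compared with that in liver, since the tables were normalized separately and the adipose protocol may measure another kind of RNA.

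Whether the targets varied together from library to library was described by Cdkn1a against 6 other targets in each tissue, 12 relations in all. Ccng1 encodes cyclin G1, and in adipose tissue it read 22835, 15726 and 26584 in WT females and 18752, 13591 and 15132 in humanized females. It read 16981 and 13569 in WT males and 17382, 14831 and 16315 in humanized males. Aen, an apoptosis-enhancing nuclease, read 4166, 1895 and 4461 in WT females and 2634, 2055 and 1885 in humanized females, and 2606 and 2212 in WT males and 3307, 2803 and 2401 in humanized males. Both were high in WT female replicates 4 and 6, where Cdkn1a was high too. In every group replicate 4 read higher than replicate 5 for Cdkn1a, Ccng1 and Aen alike. The permutations below ignored the replicate number, so that covariation between libraries and a difference shared by number cannot be told apart. Over the 11 libraries Cdkn1a rose with Ccng1 (Pearson r = 0.82, permutation p = 0.00067, adjusted p = 0.00804). Spearman's rho was 0.82 (permutation p = 0.00334, adjusted p = 0.0401). For Aen r was 0.81 (permutation p = 0.00305, adjusted p = 0.0183) and rho 0.74 (permutation p = 0.0128, adjusted p = 0.0512), so that its rank correlation just missed the threshold.

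Without the 2 libraries farthest from the median of Cdkn1a, WT female replicate 4 and WT male replicate 4, r was 0.89 and 0.87. As deviations from the group means, r was 0.88 and 0.83 (adjusted permutation p = 0.00288 for both). The permutations treated the deviations as freely exchangeable, although the group means had been removed, so that this p is likely too small. No adipose library lay between 6346 and 11219 of Cdkn1a. Among the 6 libraries below that gap, a division chosen after the values were seen, r was 0.52 with Ccng1 (exact permutation p = 0.394) and 0.37 with Aen (exact permutation p = 0.483). Neither passed the threshold there, with fewer libraries and a narrower range of Cdkn1a, and the 5 libraries above the gap were too few to be tested alone. The promoter windows of Cdkn1a, Ccng1 and Aen printed above each hold an exact half-site, as does that of Mdm2, while a second window of Cdkn1a and those of Phlda3 and Eda2r hold none. Zmat3 had no window. Whether half-sites bear on these correlations was not tested.

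Mdm2 in adipose tissue gave r = 0.63 (adjusted permutation p = 0.116), and Zmat3, Phlda3 and Eda2r gave r = 0.52, 0.37 and 0.05 (adjusted permutation p = 0.211, 0.384 and 0.877). In the 12 liver libraries Mdm2 was the one relation past the threshold, with r = 0.73 (permutation p = 0.00644, adjusted p = 0.0258) and rho = 0.74 (permutation p = 0.00764, adjusted p = 0.0458). It did not hold within both preparations: r was 0.94 in the 6 ribosomal depletion libraries and -0.40 in the 6 polyA libraries. Without humanized female replicate 3 and humanized male replicate 1 it was 0.49, and as deviations from the group means it was 0.82 (adjusted permutation p = 0.00288). That p has the same limit as the p of the adipose deviations above. With Cdkn1a in liver, Ccng1, Phlda3 and Eda2r gave r = 0.05, -0.09 and 0.13, and Zmat3 and Aen 0.53 and 0.46 (adjusted permutation p = 0.182 and 0.228 for these). These relations too differed in sign between the preparations, with 6 libraries in each. In polyA libraries Ccng1, Phlda3, Eda2r, Zmat3 and Aen gave r = -0.85, -0.73, -0.82, -0.36 and -0.80. After ribosomal depletion they gave 0.72, 0.17, 0.83, 0.73 and 0.86 in the same order.

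**Figure D4:**
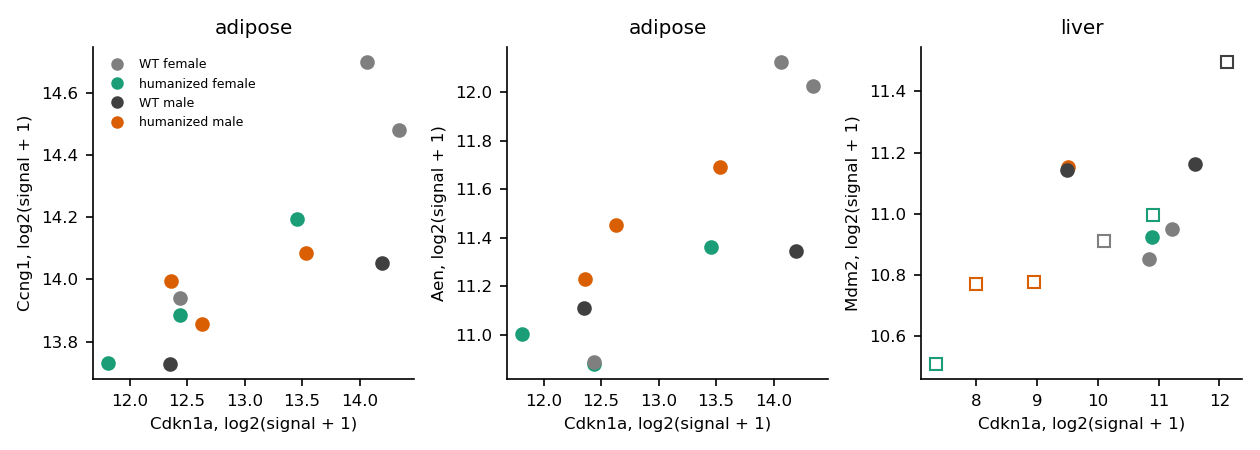
Each point is a library of liver mRNA or adipose RNA, placed by log2(signal + 1) of Cdkn1a (x axes) and of Ccng1, Aen or Mdm2 (y axes, not from 0), coloured by group, with open squares for liver libraries made after ribosomal depletion. In adipose tissue Ccng1 and Aen rise with Cdkn1a (r = 0.82 and 0.81) across a gap in Cdkn1a, and in liver the rise of Mdm2 lies in the open squares.

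The microRNA miR-34a-5p, a direct p53 target, was measured in separate small RNA libraries, 21 of liver and 20 of adipose tissue. Its mature sequence is given by RefSeq at chr4:150068473-150068494 on the plus strand of GRCm38.p6. The seed, bases 2 to 8, is in capitals and is shared with miR-34b-5p, miR-449a-5p and miR-449c-5p.
miR-34a-5p: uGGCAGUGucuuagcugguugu

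In liver the normalized signal of miR-34a-5p was 1212 to 2884 (median 2037, n = 5) in WT females and 362 to 1832 (median 1169, n = 5) in humanized females. It was 541 to 2359.7 (median 1131, n = 5) in WT males and 1141 to 5376 (median 2637, n = 6) in humanized males. The median was lower in humanized females and higher in humanized males, and the ranges overlapped in both sexes. The log2 difference was -1.04 ± 0.44 (adjusted p = 0.998) in females and 1.28 ± 0.43 (adjusted p = 0.847) in males. The test between the sexes gave 2.33 ± 0.61 (adjusted p = 0.965) by limma. Over all 837 small RNA features 0% were called in each of these comparisons. Males minus females was 0.33 ± 0.31 (adjusted p = 0.522), where 9.2% of features were called.

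In adipose tissue miR-34a-5p was 11324 to 38027 (median 32331, n = 5) in WT females and 6272 to 21379 (median 13955, n = 6) in humanized females. It was 16926 to 29318 (median 24960.2, n = 4) in WT males and 21103 to 40379.7 (median 30625, n = 5) in humanized males. Humanized females had the lowest median of the 4 groups, and the ranges of the genotypes overlapped in both sexes. The log2 difference was -0.85 ± 0.32 (adjusted p = 0.998) in females, where 0% of 1298 features were called, and 0.31 ± 0.36 (adjusted p = 0.728) in males, where 0.616% were (limma). With the replicate number as a block the male value turned to -0.44. The male groups share only replicate number 9 in these libraries, so that this fit says little about the male difference. The test between the sexes gave 1.16 ± 0.49 (adjusted p = 0.86). Males minus females was 0.66 ± 0.24 (adjusted p = 0.0892), which was not called, where 10% of features were.

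**Figure D5:**
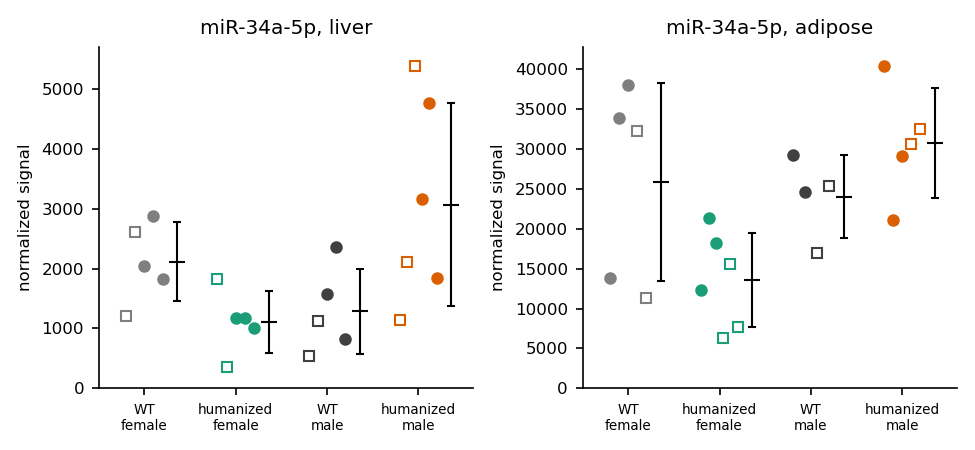
Normalized signal (y axes, from 0) of miR-34a-5p in each small RNA library of liver and adipose tissue by group, with open squares and filled circles for the 2 forms of library name, which served as the covariate, and black bars for the mean ± SD. On average humanized females lie below WT females and humanized males above WT males in both tissues, with overlapping ranges and no adjusted p under 0.05. The adipose male difference turned negative with a replicate block, in which the male groups share only number 9.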

How the data were processed

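Liver mRNA, gonadal adipose RNA and small RNA of both were analysed from the signal the authors deposited, which was normalized with DESeq2 per the submitters' processing notes. These notes also name mm9, STAR, Salmon and limma, without versions or roles, and other steps are not given in the sources used here. These values are not counts, so that the depth of the liver mRNA and adipose RNA libraries is unknown. Small RNA values were whole multiples, within 0.01, of 1 step per library, and if a step is 1 read the libraries held 5819451 to 16647090 reads in liver and 10772191 to 34352654 in adipose tissue. Summed over genes, the mRNA or RNA signal was 77307200 to 95381800 in liver and 83100300 to 90417300 in adipose libraries. Per the labels' protocols, 6 liver libraries had their ribosomal RNA depleted (2 of WT and 4 of humanized mice) and 6 were enriched for polyA RNA (4 and 2). A batch-corrected small RNA table that the authors deposited on a log2 scale (rlog) served as an alternative.

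Log2(signal + 1) was modelled by limma 3.58.1 under R 4.3.3, using empirical Bayes moderation with a mean trend, for features averaging at least 10, with all 4 groups of a table in the same model. This scale understates the change of low genes. Preparation was a covariate in liver mRNA and the form of the library name in small RNA, and adipose RNA had none. That the form of the name marks a sequencing run is an assumption. Differences are humanized minus WT or male minus female, ± SE. Calls required an adjusted p (Benjamini-Hochberg, over every feature tested) under 0.05. Correlations used scipy 1.17.1 on log2(signal + 1) with 100000 permutations, two-sided. The labels do not say that each library is a separate animal, so that p-values measure the spread between these libraries, which may be technical. The fit was tested on simulated data in which 100 features each were shifted by a log2 difference of 1 or 2. Of shifts of 1 it called 37% in liver males, 36% in liver females, 25% in adipose males and 41% in adipose females. Of shifts of 2 it called 77%, 70%, 52% and 61% in that order. Many true differences within 1 sex would thus not be called. In adipose tissue the deviations from the group means of same-numbered libraries correlated at 0.17 to 0.19 between WT and humanized females and 0.15 to 0.40 between humanized females and males. Between WT females and humanized males they correlated at -0.10 to 0.05, and different-numbered libraries reached 0.30. Pairing by number is thus at most a hint from the data. The results reported have no block, and with it no call of a p53 target gene changed there.

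The genes and lists were chosen with earlier results of these data known. Given with every library's value were Trp53, Cdkn1a and Mdm2, the members called in a tissue and the 2 members with the smallest p in each comparison. Of other lists, up to 4 called genes were named, and Ccng1, Aen, Bax, Fas, Gdf15 and members that did not overlap were named after their values were seen. Alternatives were another pseudocount (10), no filter, another scaling, no trend, the compared groups alone, a replicate block, no covariate, each preparation alone and leaving out each library.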

Additional observations from a re-analysis of the deposited data

How the results depend on the processing

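In every comparison but liver by sex the count of called p53 target genes was 0 in each setting, and with so few genes called at all this says nothing about stability. The liver count between the sexes, 2 as reported, was 1 in polyA libraries, 1 in ribosomal depletion libraries, with fewer libraries in each, and 4 without WT male replicate 2, with a range of 2 to 4 over the libraries left out. Plk2 lost its call within the preparations, at 0.80 (polyA) and 0.88 (ribosomal depletion). Of 683 settings for single genes, 655 kept direction and call, 26 changed sign and 2 lost a call, and the cause was not tested. In ribosomal depletion libraries alone Trp53 in females became -0.0060 and Cdkn1a between the sexes 0.69, and in polyA libraries alone Mdm2 in females became 0.022 and Trp53 between the sexes 0.0031. The median member difference in liver males was 0.20 in polyA libraries, with 1 humanized library, and -0.36 in ribosomal depletion libraries, with WT male replicate 1 as the sole WT library, so that preparation and library cannot be told apart, and it was 0.12 without WT male replicate 1.

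With single libraries left out, liver Cdkn1a ranged from -1.51 to 0.19 in females and -0.85 to 0.20 between the sexes, Mdm2 in females from -0.17 to 0.054 and Trp53 in females from -0.0081 to 0.12. In adipose tissue Cdkn1a ranged from -1.35 to 0.49 in males and -0.49 to 0.43 between the sexes, Mdm2 from -0.14 to 0.20 in males and -0.0032 to 0.17 between the sexes, and Trp53 from -0.056 to 0.26 in males, -0.050 to 0.062 in females and -0.045 to 0.11 between the sexes. Liver miR-34a-5p with the sexes averaged ranged from -0.034 to 0.27. Adipose miR-34a-5p between the sexes ranged from 0.54 to 0.76, with an adjusted p of 0.0496 to 0.161 (limma), the lowest without WT female replicate 10. Below the gap in Cdkn1a, in 6 adipose libraries chosen after seeing the data, r was 0.52 with Ccng1 and 0.37 with Aen.

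With the replicate number as a block, Mdm2 in liver females became 0.0047 and miR-34a-5p in adipose males -0.44, and no count of called members changed. In adipose small RNA the male groups share only number 9, so that the block says little about their difference. Deviations from the group means of libraries with the same number correlated at -0.46 to 0.24 (median -0.08) in liver, against a median of 0.02 for different numbers, and at -0.10 to 0.40 (median 0.15) in adipose tissue, against -0.09. Liver numbers were not taken as pairs. In adipose tissue every pair exceeded 0.1 between WT and humanized females and between humanized females and males, but not between WT females and humanized males, and WT and humanized males share only 2 numbers. With 2 or 3 libraries a group, intervals as wide as that of Cdkn1a in liver males (-4.20 to 0.05) limit what can be seen of a difference.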
